A study of Mus musculus with 26 samples.

Results

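The SLC25 genes encode the mitochondrial carriers, the membrane proteins that move metabolites, nucleotides, cofactors and ions across the inner mitochondrial membrane. Members were taken by name: every gene of the count matrix called Slc25a followed by a number was included, which gave 47 of 56941 genes. Of these, 39 had enough counts to be tested among 15357 genes tested in all. Relatives of the family that carry other names, such as Ucp2, Ucp3, Mtch1 and Mtch2, are outside this rule and were placed in a list of other mitochondrial transporters described further on. The label of a mitochondrial carrier holds for the family as a whole, although Slc25a17 is known as a peroxisomal member and Slc25a46 as a protein of the outer membrane.

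RNA was sequenced from the left ventricle of 26 mice with floxed Ppp2r2a, the gene of the regulatory subunit B55α of protein phosphatase 2A. Control mice (Ctrl, genotype aMHC-Cre0/0-Ppp2r2aL/L) had the floxed alleles alone, and knockout mice (cKO, genotype aMHC-CreTg/0-Ppp2r2aL/L) also had a Cre recombinase driven by the cardiomyocyte promoter aMHC, so that deletion is directed to heart muscle cells. The males were 6 Ctrl and 7 cKO mice and the females 6 Ctrl and 7 cKO mice, with 1 library per mouse. All were 12 to 16 weeks old and had been infused with saline for 2 weeks from an osmotic minipump. The strain label is C57BL/6N, but per the labels the Cre line came from FVB, and no group of mice with Cre and without floxed alleles was analysed here, so effects of Cre, of FVB sequence near it and of the deletion cannot be told apart. The question in the series title is whether the effect of B55α on the transcriptome depends on sex.

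The heart makes most of its ATP in mitochondria, and the carriers set what enters and leaves them. ADP/ATP carriers exchange matrix ATP for cytosolic ADP, the phosphate carrier supplies phosphate to ATP synthase, the malate-aspartate shuttle brings in the reducing equivalents of cytosolic NADH, and the carnitine-acylcarnitine carrier brings in fatty acids for oxidation. Other members carry amino acids, iron, nucleotides, coenzyme A, NAD and further cofactors, and several have no settled substrate.

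The libraries held 14.4 to 30.9 counts in units of 1e6. Levels are given as CPM, counts per 1e6 counts of the scaled library. Ppp2r2a was 37.4 ± 10.2 CPM (SD, n = 6) in Ctrl males and 14.1 ± 1.81 CPM (SD, n = 7) in cKO males. It ran from 36.2 to 46.7 CPM in Ctrl females and from 9.96 to 16.2 CPM in cKO females, with no overlap between genotypes in either sex. Ctrl males 3 and 6 stood apart from the other Ctrl males at 24.9 and 24.1 CPM, and results are also given without them where this matters. The source of the Ppp2r2a counts that remain in cKO mice was not tested. Markers of cardiomyocytes were abundant in all libraries, with summed levels of 59771 to 82074 CPM, while markers of atrial myocytes, skeletal muscle and lymphocytes summed to at most 2.31 CPM in any mouse, and the skeletal muscle gene Myh4 was at 0 counts in all 26. In males the summed cardiomyocyte markers ranged from 68140 to 76060 CPM in Ctrl and from 59771 to 70957 CPM in cKO, with 7 of 8 markers lower in cKO, 2 of them at an adjusted p under 0.05, and a median log2 fold change of -0.16. All 6 fibroblast markers were higher in cKO males, with a median of 0.15, and none of them passed. In females 8 of 8 cardiomyocyte markers were lower in cKO, with a median of -0.09. There 6 of 6 fibroblast markers were higher, with a median of 0.10, and none of either passed. Endothelial markers were lower in 4 of 6 in cKO males (median -0.12) and higher in 6 of 6 in cKO females (0.06). Smooth muscle and pericyte markers had medians of -0.08 in males and 0.05 in females, and macrophage markers 0.03 and 0.06. Red blood cell markers were lower in 4 of 5 in each sex, with medians of -0.08 and -0.17. None of these passed. In a piece of tissue, fewer cells of a type and less RNA per cell cannot be told apart.

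Together the 47 genes took 0.857% to 1.04% of the counts of a library, and the share was lowest in cKO males, at 0.899% ± 0.0305 (SD, n = 7) against 0.978% ± 0.0222 (SD, n = 6) in Ctrl males. In the females it was 0.968% ± 0.0291 in cKO and 0.991% ± 0.0307 in Ctrl. Slc25a4, the ADP/ATP carrier of heart and skeletal muscle, made up 58.7% of the family's counts. The phosphate carrier Slc25a3 followed with 15.8%, the oxoglutarate carrier Slc25a11 with 5.90%, the second ADP/ATP carrier Slc25a5 with 3.58% and the aspartate/glutamate carrier Slc25a12 with 2.29%. The family's share of a library is therefore largely a reading of Slc25a4.

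To compare levels between genes, CPM was divided by the length of the longest annotated transcript. Which transcripts the heart uses was not tested, so the order depends on the lengths chosen. For Slc25a3 and Slc25a11 the lengths were 4039 and 1711 bases, and the levels before division 1512 and 565 CPM. Slc25a4 stood at 2921 CPM per kb on average over the 26 mice, Slc25a3 at 374, Slc25a11 at 330 and Slc25a5 at 276. A step down followed to the glutathione carrier Slc25a39 at 83.6 CPM per kb, Slc25a34 at 63.7, the aspartate/glutamate carrier Slc25a13 at 50.7 and the carnitine-acylcarnitine carrier Slc25a20 at 50.5. Slc25a13 and Slc25a20 do not differ beyond their spread between mice, and neither does the order of the many members between 1 and 20 CPM per kb where neighbours are close. At the low end of the tested members stood the X-linked Slc25a53 at 0.347 CPM per kb, with 15 to 52 counts per library.

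**Figure D1:**
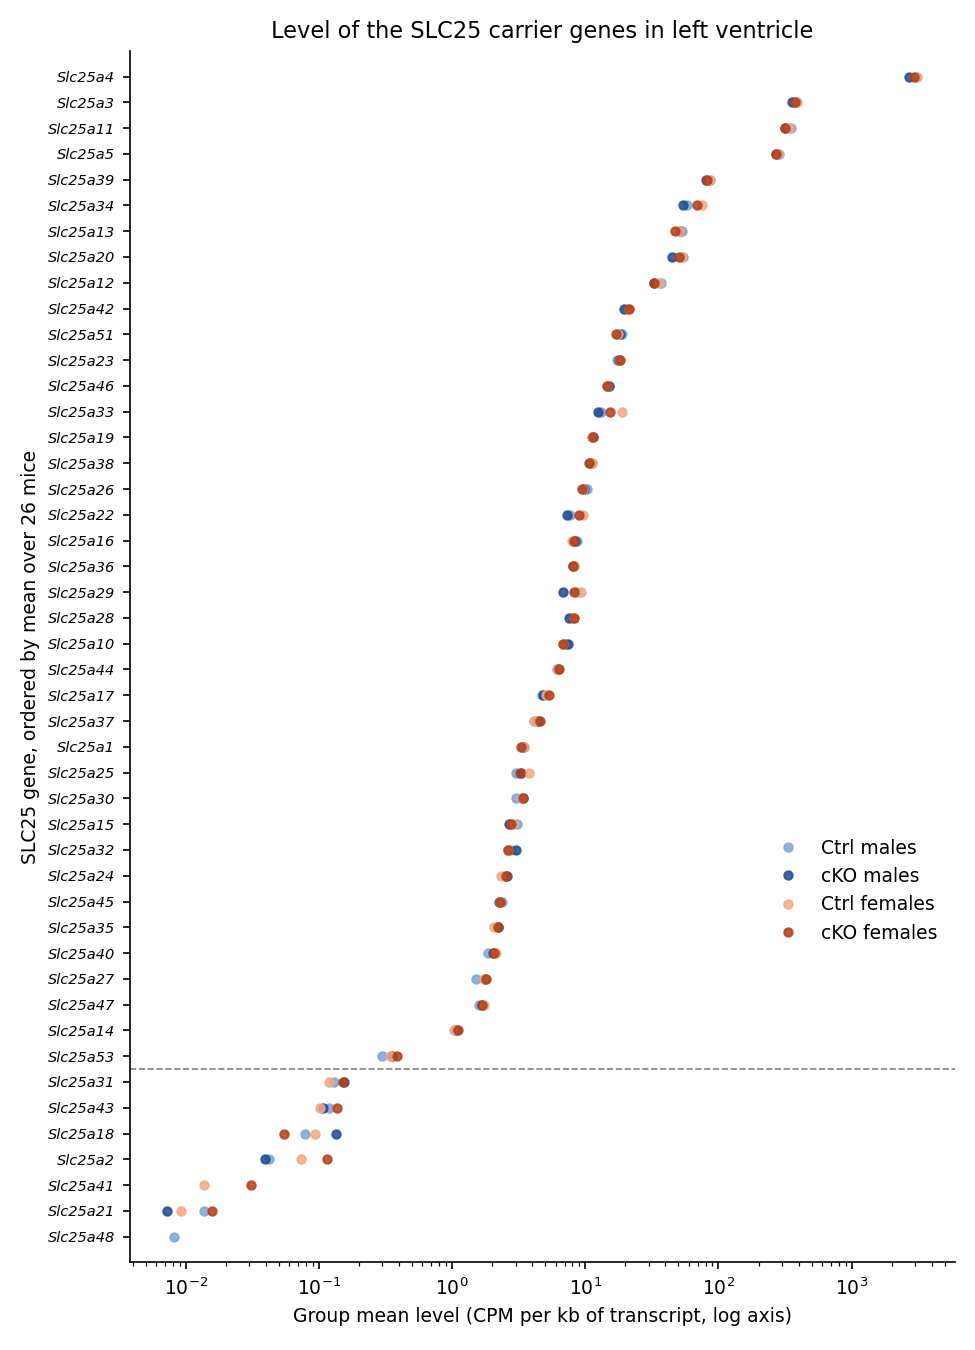
Mean level of each SLC25 gene in the 4 groups, in CPM per kb of transcript on a log axis, ordered by the mean over 26 mice. Each point is a group mean, group means of 0 are not drawn, genes below the dashed line had too few counts to be tested, and Slc25a54, at 0 in all mice, is not shown. Slc25a4 stands alone at 2921 CPM per kb, with Slc25a3, Slc25a11 and Slc25a5 next between 276 and 374.

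The 8 members that were not tested were at the floor of detection. Slc25a54 had 0 counts in all 26 libraries, which does not show that its RNA is absent. Slc25a48 had 0 in 24 libraries, Slc25a41 in 21 and Slc25a21 in 13. Slc25a31, the ADP/ATP carrier known from testis, had 2 to 11 counts per library, Slc25a18 had 0 to 13, and Slc25a2 and the X-linked Slc25a43 had 0 to 8. The gene Atp6v1e1 overlaps Slc25a18 on the opposite strand and had 56361 counts against 101 for Slc25a18 in all, so the few counts of Slc25a18 are uncertain. No comparison was made for these genes.

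Across the tested members, deletion of Ppp2r2a went with small differences, and 1 gene passed the test. Genes were called at an adjusted p under 0.05 in edgeR's quasi-likelihood test with Benjamini-Hochberg adjustment over all 15357 genes. In males 1 of 39 members, Slc25a4, was called lower in cKO, where 0.443% of all genes were called and 0.26% were called lower. In females edgeR called 0 of 39 members, against 0.0326% of all genes, and DESeq2 and limma voom also called 0. For the mean of the genotype effects of both sexes 1 member was called, again Slc25a4 and again lower, against 1.33% of all genes called and 0.866% called lower. For the difference between the sexes in the genotype effect, 0 members were called by edgeR, DESeq2 or voom, as were 0% of all genes by edgeR, and 0 members had an unadjusted p under 0.05, against 3.96% of all genes. An effect in males only is therefore not shown for any member.

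Small decreases were common among the members, but the majority was slim. In males 23 of 39 members were lower in cKO (59.0%, against 49.7% of all genes) with a median log2 fold change of -0.04. Without Ctrl male 2 the median was -0.012, with 21 of 39 lower, and with the length and GC offset and the replicate block it was -0.0074, with 20 of 39 lower. In females 23 of 39 were lower as well, against 48.9% of all genes, with a median of -0.02. The female median moved between -0.0040 without Ctrl female 5 (21 lower) and -0.047 without cKO female 3 (27 lower), and without Ctrl female 2 there were 29 lower. For the mean of both sexes it was again 23 of 39, against 48.4%, with a median of -0.03, which was -0.016 with voom (21 lower). In males 26 of 39 members lay within 0.1 of no change on the log2 scale and 4 differed by more than 0.2. At an unadjusted p under 0.05 there were 7 members in males (Slc25a4, Slc25a11, Slc25a12, Slc25a20, Slc25a29 and Slc25a15 lower, Slc25a27 higher), against 13.2% of all genes. There were 4 in females (Slc25a4, Slc25a11 and Slc25a12 lower, Slc25a37 higher), against 5.15% of all genes, and 7 for the mean of both sexes, against 14.1%.

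**Figure D2:**
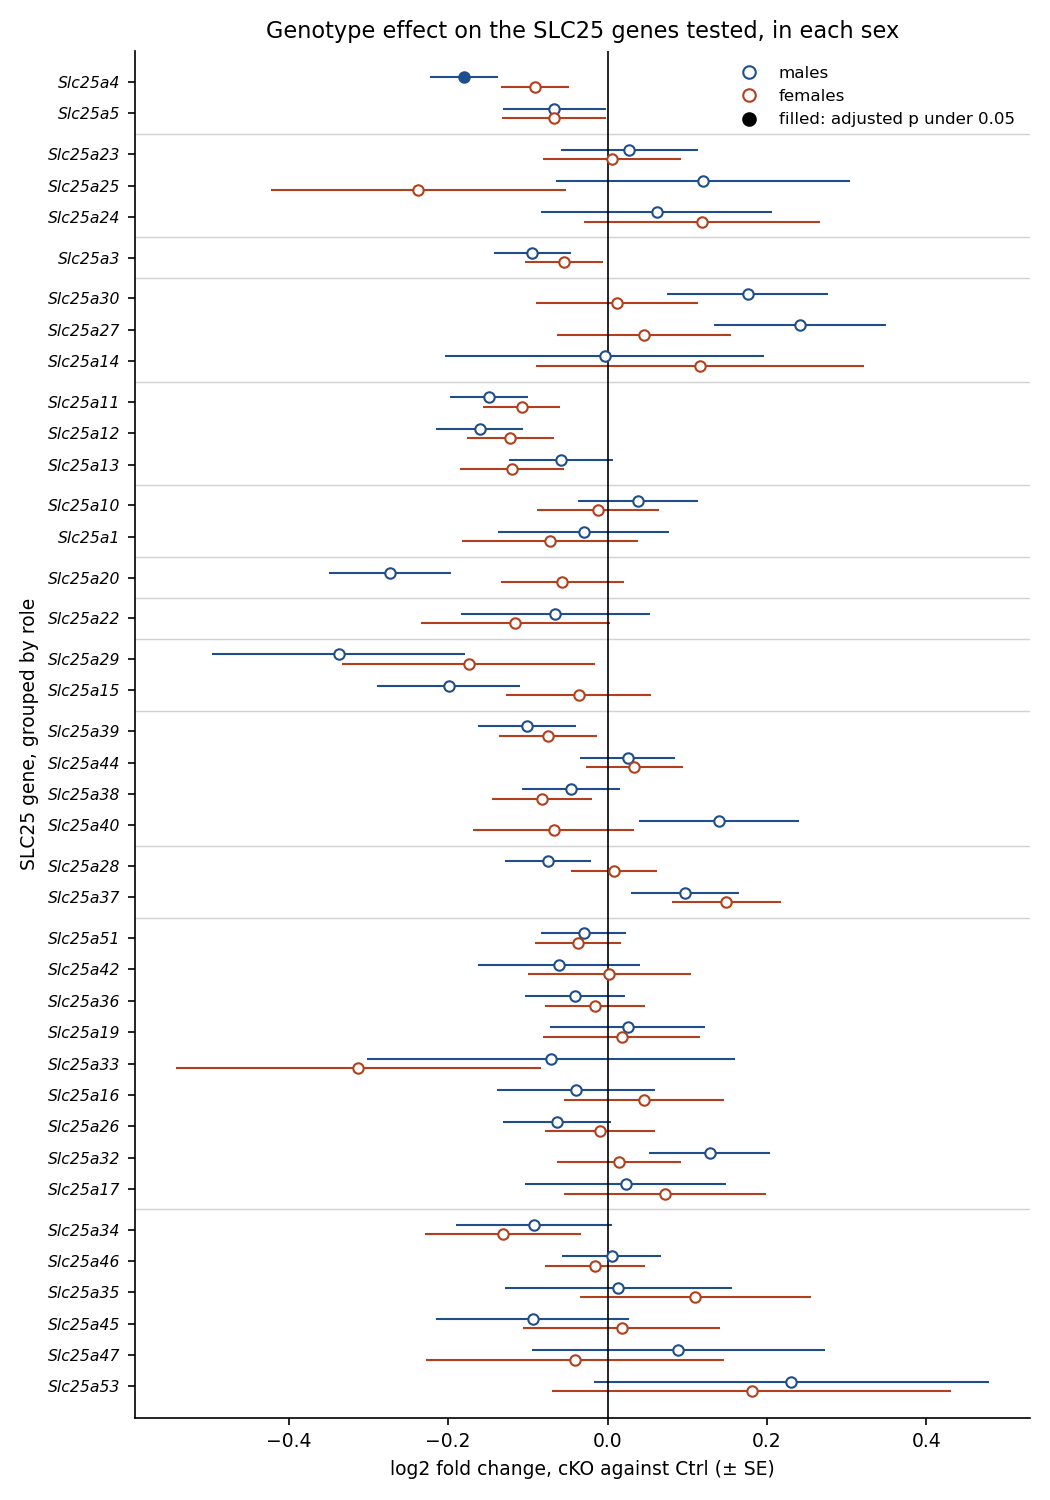
Log2 fold change of cKO against Ctrl for the 39 tested members in males (blue) and females (red), with bars of 1 standard error and members grouped by role. The filled point marks an edgeR adjusted p under 0.05, which Slc25a4 in males reached at -0.18, and most other members lie close to 0.

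Slc25a4 was the member that passed the test. In Ctrl males its level ran from 5540 CPM through a median of 5841 to 6048 CPM, and in cKO males from 4824 through 5185 to 5447 CPM. Every cKO male lay below every Ctrl male, and it was the 1 member whose male groups did not overlap, where 1.28% of all genes tested had male groups without overlap. The mean fell from 5830 ± 206 CPM (SD, n = 6) to 5146 ± 243 CPM (SD, n = 7), a log2 fold change of -0.18 with a standard error of 0.04 and an edgeR adjusted p of 0.0487.

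In females the Slc25a4 groups overlapped. Ctrl females ran from 5538 through 5994 to 6331 CPM and cKO females from 5227 through 5686 to 5966 CPM. All 7 cKO females lay below the Ctrl mean and 2 of 7 lay below the lowest Ctrl mouse, with a log2 fold change of -0.09, a standard error of 0.04 and an edgeR adjusted p of 0.948. The difference between the female and the male effect was 0.09 on the log2 scale with a standard error of 0.06 (unadjusted p = 0.149, edgeR adjusted p of 0.999), so the effects were not shown to differ. Over both sexes the mean effect was -0.14 with a standard error of 0.03 and an edgeR adjusted p of 0.0200.

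The call of Slc25a4 in males stood close to its threshold. Of 26 fits that each left out 1 mouse, 7 still called it: those without Ctrl male 6, cKO male 7, Ctrl females 2 and 6 or cKO females 2, 5 and 7. The other 19 gave adjusted p-values from 0.0501 to 0.136, the highest without Ctrl male 5, while the log2 fold change in all 26 fits lay between -0.19 and -0.17. The mean effect of both sexes was called in 26 of 26 such fits, with adjusted p-values from 0.00807 to 0.0474. An offset for transcript length and GC content per library reduced the male value to -0.14 (edgeR adjusted p of 0.153) and the mean effect to -0.11 (edgeR adjusted p of 0.0695), so that neither was called. Without Ctrl males 3 and 6 the male value was -0.21 (edgeR adjusted p of 0.0545).

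**Figure D3:**
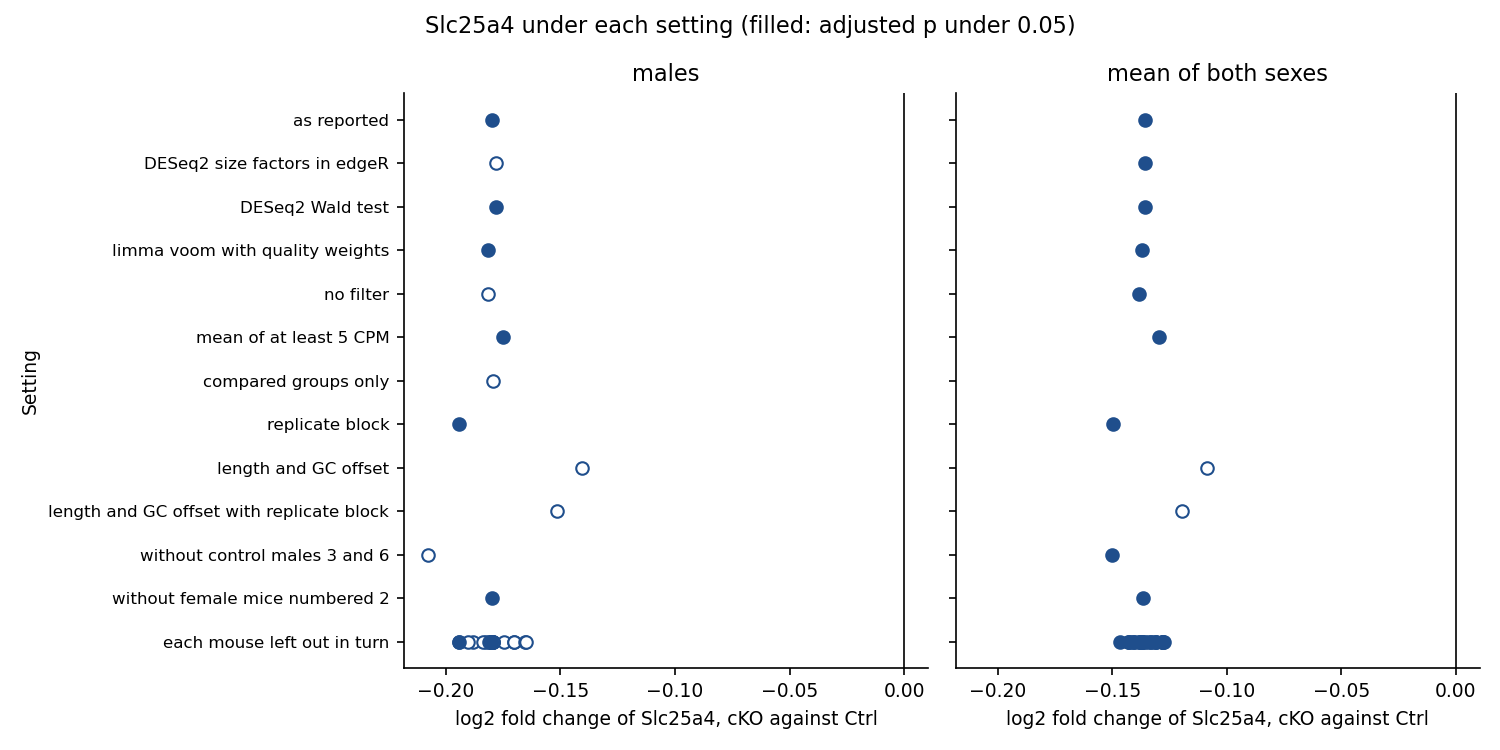
Log2 fold change of Slc25a4, cKO against Ctrl, in males (left) and as the mean of both sexes (right), for the values as reported, each alternative setting and each of the 26 mice left out in turn. Filled points have an adjusted p under 0.05. All points lie below 0, while the male value loses its call under several settings and the mean effect loses it under the length and GC offset, with and without the replicate block.

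The fall of Slc25a4 in males was about as large as that of the cardiomyocyte markers. Expressed as a percent of the summed CPM of the 8 markers in the same mouse, Slc25a4 ran from 7.82% through a median of 8.14% to 8.39% in Ctrl males and from 7.18% through 7.86% to 8.61% in cKO males. On this scale the male groups overlapped. In the females the medians were 7.96% in Ctrl and 7.87% in cKO. The part of cardiomyocyte content in the difference was not tested. The share of counts from mitochondrially encoded genes was 17.6% ± 1.45 in Ctrl males and 18.3% ± 0.830 in cKO males (exact permutation p = 0.352, two-sided), so its mean was not lower in cKO males.

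Slc25a5, the ADP/ATP carrier of most other cell types, had a smaller fold change than Slc25a4 in males. In females its value was close to the -0.09 of Slc25a4, and the difference between these genes was not tested in either sex. Slc25a5 ran from 326 through 342 to 393 CPM in Ctrl males and from 302 through 335 to 391 CPM in cKO males, with wide overlap. Its log2 fold change was -0.07 in males and -0.07 in females, each with a standard error of 0.07, and neither was called. There were 13.9 to 20.0 counts of Slc25a4 for each count of Slc25a5 over the 26 mice, on average 16.6 ± 1.29 in Ctrl males and 15.4 ± 1.13 in cKO males, and 17.2 ± 1.53 in Ctrl females and 16.9 ± 1.11 in cKO females. A processed pseudogene, Slc25a5-ps, had 16 to 40 counts per library, and how the counting treated reads shared between the copies is not given in the sources used here.

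Slc25a3, the phosphate carrier, varied with Slc25a4 between mice of the same group. It ran from 1387 through 1566 to 1650 CPM in Ctrl males and from 1372 through 1428 to 1509 CPM in cKO males, and the groups overlapped. The log2 fold change was -0.09 in males with a standard error of 0.05, and -0.05 in females with a standard error of 0.05, with edgeR adjusted p-values of 0.406 and 0.975. After removal of the group means, log2 CPM of Slc25a3 and Slc25a4 correlated over the 26 mice with Pearson's r of 0.639 (permutation p adjusted over 14 tests 0.00756) and Spearman's rho of 0.547 (adjusted 0.0381). Without the 2 mice farthest from the median r was 0.498, and within groups it was 0.928 in Ctrl males, 0.706 in cKO males, 0.734 in Ctrl females and 0.404 in cKO females. For the other 6 of the 7 most abundant members after Slc25a4, r with Slc25a4 lay between 0.0652 and 0.438 and no adjusted p was below 0.122. As a percent of the summed cardiomyocyte markers, Slc25a3 was 2.14% ± 0.104 in Ctrl males and 2.21% ± 0.111 in cKO males, with overlap. In females it was 2.08% ± 0.0981 in Ctrl and 2.13% ± 0.0868 in cKO. The part of cell composition in the correlation of Slc25a3 with Slc25a4 was not tested.

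The promoters of the nuclear genes of mitochondria often hold sites of the ETS factor GABP, of NRF-1 and of the ERR receptors. Promoter sequence was at hand in RefSeq (GRCm38.p6) for 36 of 47 members, and the 250 bases before each start were searched on both strands for AAGGTCA (an ERR half-site), for the NRF-1 palindrome, for GCATGCGC (an NRF-1 core), CCGGAAG (GABP), TGACGTCA (CRE) and CACGTG (E-box). CCGGAAG was found in 6 of 36 members (16.7%, against 7.83% of 27025 genes): Slc25a3, Slc25a4, Slc25a17, Slc25a20, Slc25a38 and Slc25a54. The ADP/ATP carrier Slc25a31 was also searched and did not have these letters. The windows of Slc25a4, Slc25a3 and Slc25a20 are printed here with the motif in capitals, on the strand of each gene. They lie at chr8:46211174-46211203, chr10:91124124-91124153 and chr9:108662046-108662075. Slc25a34, described with the sexes, was the 1 member with AAGGTCA (2.78%, against 4.70% of all genes), which lies on the other strand and reads TGACCTT in the window at chr4:141623935-141623964.
Slc25a4: acccctagctcCCGGAAGcgtcttcgcccc
Slc25a3: cactagcagggCCGGAAGggctggggttgg
Slc25a20: gaggagggcagCCGGAAGtagacttcaggg
Slc25a34: ccagtcacaagTGACCTTtcctccagatcc
CACGTG was found in 7 of 36 members (19.4%, against 6.86% of all genes), among them Slc25a13, Slc25a15 and Slc25a33. The NRF-1 palindrome was found in 2, Slc25a3 and Slc25a31 (5.56%, against 5.64%). GCATGCGC was found in 2, Slc25a31 and Slc25a54 (5.56%, against 2.56%), and both of these genes had too few counts to be tested. TGACGTCA was found in 2, Slc25a25 and Slc25a36 (5.56%, against 1.77%). The NRF-1 core and palindrome share letters and can match overlapping stretches. A match describes the sequence, and binding of the factors was not measured here.

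The 3 carriers of the malate-aspartate shuttle were all lower in cKO in both sexes, without passing the test. Slc25a11, which exchanges malate for oxoglutarate, ran from 565 through 592 to 651 CPM in Ctrl males and from 500.4 through 535 to 587 CPM in cKO males. Its log2 fold change was -0.15 in males (edgeR adjusted p of 0.145), -0.11 in females (0.944) and -0.13 for the mean of both sexes (0.0544), each with a standard error of 0.03 to 0.05. Slc25a12, an aspartate/glutamate carrier, ran from 214 through 233 to 260 CPM in Ctrl males. In cKO males it ran from 198 through 206 to 225 CPM. Its log2 fold change was -0.16 in males (edgeR adjusted p of 0.165), -0.12 in females (0.943) and -0.14 for the mean (0.0603). The groups of both genes overlapped in each sex. As a percent of the summed cardiomyocyte markers, Slc25a11 was 0.834% ± 0.0305 in Ctrl males and 0.830% ± 0.0255 in cKO males, and Slc25a12 was 0.326% ± 0.0127 and 0.322% ± 0.0114, with overlap in both. In females Slc25a11 was 0.776% ± 0.0364 in Ctrl and 0.763% ± 0.0260 in cKO, and Slc25a12 was 0.301% ± 0.0194 and 0.293% ± 0.0165. The part of cardiomyocyte content in these decreases was not tested. Slc25a13, the related carrier best known from liver, gave -0.06 in males and -0.12 in females. Per kb of transcript Slc25a13 stood above Slc25a12 on average over the 26 mice, at 50.7 against 34.5 CPM per kb. In CPM the order was the reverse, at 158 for Slc25a13 against 219 for Slc25a12. The per kb order rests on the longest annotated transcripts, of 3121 and 6351 bases, and which transcripts the heart uses was not tested. The dicarboxylate carrier Slc25a10 and the citrate carrier Slc25a1, which serve other exchanges of the same acids, gave 0.04 and -0.03 in males and -0.01 and -0.07 in females.

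Whether Slc25a11 and Slc25a12 pass for the mean effect depended on the method. Both were called by the DESeq2 Wald test, with adjusted p-values of 0.00971 and 0.0142, by limma voom, at 0.0485 and 0.0484, and by edgeR among genes with a mean of at least 5 CPM, at 0.0390 and 0.0441. With the replicate block in edgeR neither was called, at 0.119 and 0.127. With the length and GC offset Slc25a11 was at 0.182, and Slc25a12 was called at 0.0303. With that offset and the block neither was called, at 0.313 and 0.0728. Of the 26 fits without 1 mouse, 4 called Slc25a11 (without Ctrl male 6, cKO male 4, Ctrl female 6 or cKO female 3, the lowest adjusted p being 0.0192). Slc25a12 was called in 5 (without Ctrl male 4, cKO male 4, Ctrl females 2 or 6 or cKO female 4, the lowest adjusted p being 0.0337). The gene Rnf167 overlaps Slc25a11 on the opposite strand, with counts equal to 9.21% of those of Slc25a11.

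Slc25a20, which brings acylcarnitines into the matrix, had the lowest male fold change among the 8 members of highest level per kb, and it was not called. Ctrl males ran from 139.3 through 148.5 to 164 CPM and cKO males from 98.4 through 124 to 140.5 CPM. All 7 cKO males lay below the Ctrl mean and 6 of 7 lay below the lowest Ctrl male. The log2 fold change was -0.27 with a standard error of 0.08 and an edgeR adjusted p of 0.0876. The DESeq2 Wald test called it with an adjusted p of 0.0302, the 1 call among 11 alternative settings. The highest edgeR adjusted p among these settings was 0.214. In females Ctrl mice ran from 125 through 150 to 159 CPM and cKO mice from 126 through 134 to 164 CPM, with a log2 fold change of -0.06. As a percent of the summed cardiomyocyte markers, Slc25a20 was 0.208% ± 0.00685 in Ctrl males and 0.189% ± 0.0148 in cKO males, with overlap. In females it was 0.193% ± 0.0219 in Ctrl and 0.196% ± 0.0145 in cKO. The part of cardiomyocyte content in the values of Slc25a20 was not tested. The difference between the female and the male effect was 0.22 with a standard error of 0.11, the smallest unadjusted p of the members for this difference (0.0569), and the edgeR adjusted p was 0.999.

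**Figure D4:**
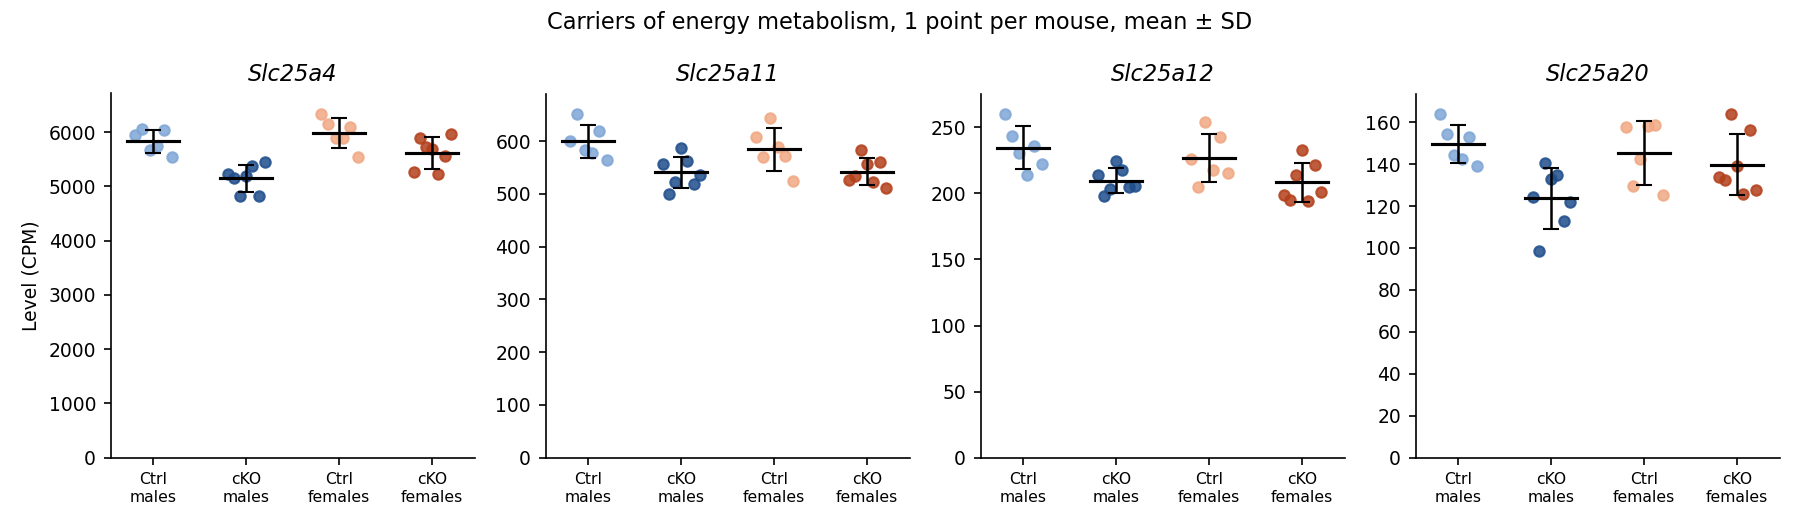
Level in CPM of Slc25a4, Slc25a11, Slc25a12 and Slc25a20 in each mouse of the 4 groups. Each point is 1 mouse, the horizontal line is the group mean and the bar 1 SD, and the axes start at 0. In males the Slc25a4 groups do not overlap, and for the other 3 genes at least 1 cKO male lies within the Ctrl range.

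The carriers of amino acids differed little or varied widely. Slc25a29, a carrier of basic amino acids, gave -0.34 in males with a standard error of 0.16, and Slc25a15, the ornithine carrier, -0.20 with a standard error of 0.09. Neither was called, with edgeR adjusted p-values of 0.355 and 0.327, and in females they gave -0.17 and -0.04. Slc25a22, a glutamate carrier, gave -0.07 in males and -0.12 in females. The glutathione carrier Slc25a39 gave -0.10 and -0.07, the branched-chain amino acid carrier Slc25a44 0.03 and 0.03, and the glycine carrier Slc25a38 -0.05 and -0.08. Slc25a40, the less abundant glutathione carrier, gave 0.14 in males and -0.07 in females, with an unadjusted p of 0.156 for the difference.

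The mitoferrins, which bring iron into mitochondria, and the carriers of nucleotides and cofactors were not called in any comparison. Slc25a37, the mitoferrin of red cell precursors, was 24.5 ± 3.18 CPM in Ctrl females and 27.1 ± 1.49 CPM in cKO females, a log2 fold change of 0.15 with a standard error of 0.07 and an edgeR adjusted p of 0.948. In males it gave 0.10. The other mitoferrin, Slc25a28, gave -0.08 in males and 0.01 in females. Of the 9 nucleotide and cofactor carriers, 3 were higher and 6 lower in males, between -0.07 and 0.13, and 5 were higher and 4 lower in females, between -0.31 and 0.07. The value of -0.31 is that of Slc25a33, which was -0.01 without Ctrl female 2, the mouse at 69.3 CPM. Without both females numbered 2 it was -0.16. Among the most abundant of them, the NAD carrier Slc25a51 gave -0.03 and -0.04, and the coenzyme A carrier Slc25a42 gave -0.06 and 0.00 in males and females.

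All 3 relatives of the uncoupling proteins were higher in cKO for the mean of both sexes. Slc25a27 gave 0.24 in males with a standard error of 0.11 and 0.05 in females, Slc25a30 gave 0.18 and 0.01, and the X-linked Slc25a14 gave 0.12 in females and close to no change in males. None was called, and their levels were low, with Slc25a27 at 3.71 to 5.06 CPM in Ctrl males and 4.08 to 6.04 CPM in cKO males. The ATP-Mg/phosphate carriers, which adjust the adenine nucleotide content of the matrix in response to calcium, also had no call. Slc25a23, the most abundant of them here, gave 0.03 in males and 0.01 in females, and Slc25a25 gave 0.12 and -0.24 with a standard error of 0.18 or 0.19. The female value of Slc25a25 depended on Ctrl female 2, at 25.1 CPM, and was -0.01 without that mouse. Without both females numbered 2 it was -0.08. The gene Naif1 overlaps Slc25a25 on the opposite strand, with counts equal to 44.2% of those of Slc25a25. The 6 tested members with a role in fission or without a settled substrate ranged from -0.09 to 0.23 in males and from -0.13 to 0.18 in females. The outer membrane protein Slc25a46 gave 0.01 and -0.02.

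No member was called between the sexes by edgeR. Among Ctrl mice edgeR called 0 of 39 members, against 0.638% of all genes, the DESeq2 Wald test called 1, Slc25a34, and voom called 0. At an unadjusted p under 0.05 there were 4 members, all higher in females (Slc25a34, Slc25a22, Slc25a33 and Slc25a40), against 12.1% of all genes. Among cKO mice edgeR called 0 of 39, against 2.7% of all genes, DESeq2 called 2, Slc25a4 and Slc25a34, and voom called 1, Slc25a34. At an unadjusted p under 0.05 there were 6 members (Slc25a4, Slc25a34, Slc25a20, Slc25a22 and Slc25a28 higher in females, Slc25a32 lower), against 17.3% of all genes.

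Slc25a34, a carrier without a settled substrate, had the smallest p of the members in both comparisons of the sexes. It ran from 135 through 156 to 174 CPM in Ctrl males and from 168 through 192 to 242 CPM in Ctrl females. Among cKO mice it ran from 113 through 148 to 175 CPM in males and from 159 through 176 to 214 CPM in females. In Ctrl mice 5 of 6 females lay above every male, and in cKO mice 4 of 7 did. The female to male log2 fold change was 0.37 in Ctrl with a standard error of 0.10 (edgeR adjusted p of 0.0888) and 0.33 in cKO with a standard error of 0.09 (0.0532). In the Ctrl comparison 0 of 26 fits without 1 mouse called it, and in the cKO comparison 6 of 26 did (without cKO males 1 or 4, Ctrl females 2 or 3 or cKO females 1 or 5, with adjusted p-values from 0.0404). Between genotypes Slc25a34 gave -0.09 in males and -0.13 in females, neither called. With 1 mouse left out these values lay between -0.14 and -0.04 and between -0.18 and -0.07, the smallest female decrease being that without Ctrl female 2, and without both females numbered 2 the female value was -0.06.

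Slc25a22, the glutamate carrier, also had a higher mean in females and was not called. In Ctrl mice its mean was 42.7 ± 4.67 CPM over 6 males and 54.1 ± 10.7 CPM over 6 females (SD), with a log2 fold change of 0.34 with a standard error of 0.12 and an edgeR adjusted p of 0.225. In cKO mice it was 40.9 ± 4.14 CPM in males and 49.8 ± 9.81 CPM in females, a log2 fold change of 0.29 (edgeR adjusted p of 0.173). The sexes overlapped in both genotypes. Slc25a33, a carrier of pyrimidine nucleotides, gave 0.55 in Ctrl with a standard error of 0.24, but 1 Ctrl female lay far above the rest at 69.3 CPM, and without Ctrl female 2 the value was 0.25. Slc25a32, the folate carrier, was lower in cKO females than in cKO males, with a log2 fold change of -0.20 (edgeR adjusted p of 0.143).

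**Figure D5:**
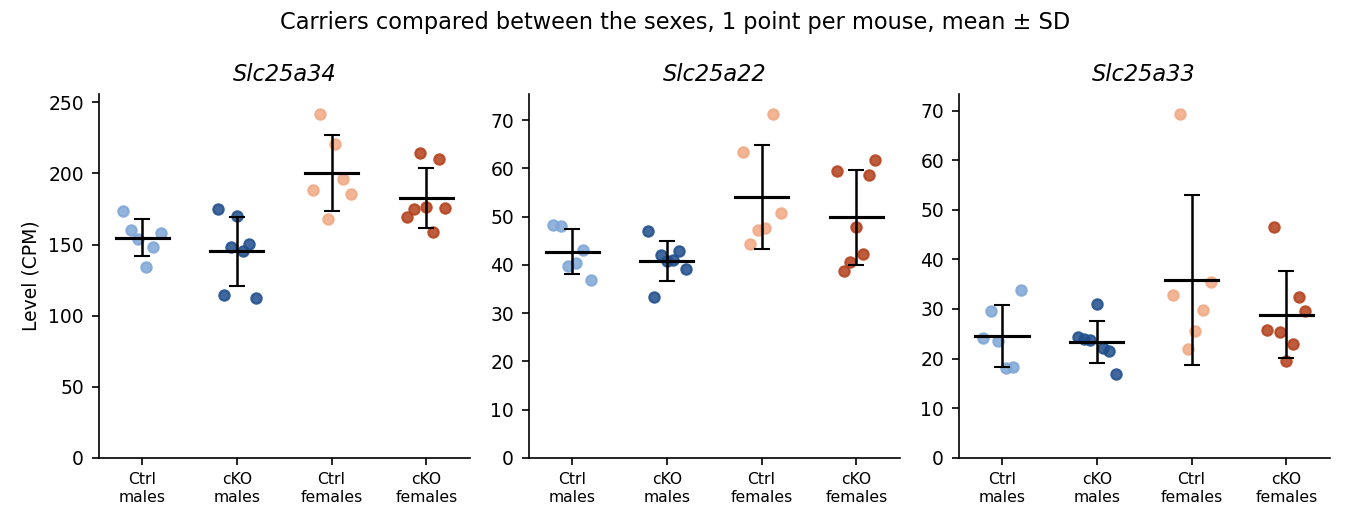
Level in CPM of Slc25a34, Slc25a22 and Slc25a33 in each mouse. Each point is 1 mouse, the horizontal line is the group mean and the bar 1 SD, and the axes start at 0. Slc25a34 is higher in most females than in the males of the same genotype, and the mean of Slc25a33 in Ctrl females is raised by 1 mouse at 69.3 CPM.

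Slc25a4 itself had a higher mean in cKO females than in cKO males and was not called, at 5617 ± 288 CPM (SD, n = 7) against 5146 ± 243 CPM (SD, n = 7), with a log2 fold change of 0.13, a standard error of 0.04 and an edgeR adjusted p of 0.0885. All 7 cKO females lay above the mean of the cKO males and 5 of 7 above the highest of them. Among Ctrl mice the sexes differed by 0.04, within the spread between mice. The share of mitochondrially encoded counts was 16.7% ± 1.53 in cKO females and 18.3% ± 0.830 in cKO males (exact permutation p = 0.0239, two-sided, adjusted over 4 comparisons 0.0956), and summed cardiomyocyte markers ran from 64805 to 77097 CPM in cKO females. The part of either in the difference of Slc25a4 was not tested.

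The family holds 4 X-linked members, of which 3 were tested, and none differed between the sexes beyond its spread. Slc25a5 gave -0.01 in Ctrl and -0.01 in cKO for females against males, with a sign that changed under several settings. Slc25a14 gave -0.04 and 0.08, also without a stable sign, and Slc25a53 gave 0.19 and 0.14, at levels of 0.709 to 2.51 CPM in all mice. With 1 mouse left out, the values of Slc25a53 lay between 0.05 and 0.30 in Ctrl and between 0.05 and 0.31 in cKO.

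The members differed in how much they varied between mice of the same group. Averaged over the 4 groups, the coefficient of variation was lowest for Slc25a4, at 4.50%, then 5.51% for Slc25a3 and 5.63% for Slc25a11. The highest was that of Slc25a53, at 31.6%, where counting error alone gives 18.2%. Slc25a33 came next at 30.5%, Slc25a25 reached 23.9% and Slc25a29 20.2%, where counting error gives 4.13%, 6.09% and 5.36%. Slc25a14 at 24.4% and Slc25a47 at 23.5% also ranked above Slc25a29, with counting errors of 15.2% and 12.2%. Ctrl females had the widest spread for Slc25a33 and Slc25a25, at 47.8% and 39.2%, with Ctrl female 2 the highest mouse for both, and the other groups ranged from 18.1% to 30.7% and from 15.8% to 24.4%. For Slc25a33, Slc25a25 and Slc25a29 the spread between mice was thus several times that of counting, which was not so for Slc25a53, Slc25a14 and Slc25a47. The standard error of the male log2 fold change was 0.23 for Slc25a33 and 0.18 for Slc25a25, each as large as the change of Slc25a4 or larger.

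Other genes of mitochondrial transport, from a list of 29 transporters and channels outside the naming rule, leaned the same way as the abundant carriers. Of 28 tested, 20 were lower in cKO males with a median of -0.07, and 20 were lower in females with a median of -0.04. Over all genes tested 49.7% were lower in males and 48.9% in females, with medians of 0.0010 and 0.0028. In males and for the mean of both sexes 1 of 28 was called, each time lower. Among all genes 0.26% and 0.866% were called lower. Mtch2, an outer membrane relative of the carriers, was called lower in males (from 142 ± 3.76 CPM to 127 ± 3.89 CPM, log2 fold change -0.17, edgeR adjusted p of 0.0272) and for the mean of both sexes (-0.12, edgeR adjusted p of 0.00965). The channel Vdac3 gave -0.19 and the pyruvate carrier subunit Mpc2 gave -0.15 in males, and neither was called (edgeR adjusted p of 0.0788 and 0.134). In females the smallest p of the list was that of the calcium uptake regulator Micu2, at -0.17 and an edgeR adjusted p of 0.787.

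Of 19 enzymes that work on the substrates of the carriers, 16 were lower in cKO males with a median log2 fold change of -0.12. In females 17 were lower with a median of -0.07. The shares of all genes tested that were lower were 49.7% in males and 48.9% in females. Of the 19, 0 were called in males or in females. For the mean of both sexes 1 was called, where 0.866% of all genes were called lower. Ckm, the muscle creatine kinase that uses the exported ATP, was called lower for the mean of both sexes at -0.14 (edgeR adjusted p of 0.0265). It was 3182 ± 202 CPM in Ctrl males and 2871 ± 173 CPM in cKO males, and 3017 ± 130.2 CPM in Ctrl females and 2742 ± 121 CPM in cKO females. The malate dehydrogenase Mdh1, the cytosolic enzyme of the malate-aspartate shuttle, gave -0.17 in males (edgeR adjusted p of 0.0639), and the transaminase Got2 gave -0.16 for the mean (0.0583). Cpt2, which forms acyl-CoA from the acylcarnitines that Slc25a20 carries, gave -0.23 in males (0.131) and -0.19 for the mean (0.0544). These medians lie near that of the cardiomyocyte markers, and the part of cardiomyocyte content in them was not tested.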

How the data were processed

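Whole-number counts per gene for 26 left ventricle libraries were deposited by the authors in 1 matrix, without normalization. Reads were aligned to GRCm39 with STAR 2.7.11a and counted with HTSeq, after cutadapt 4.6 and FastQC 0.74, per the submitters' processing notes; the annotation, the strand setting and the treatment of shared reads are not given in the sources used here. Per the labels, libraries were stranded, poly-A selected and made from 500 ng of RNA with an integrity number of at least 7.7, from about 20 mg of tissue. Transcript length, GC content, chromosome and overlaps came from GENCODE M21 by gene ID, and promoter sequence from RefSeq (GRCm38.p6), so no GRCm39 coordinates are given.

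Differences were tested with edgeR 4.0.16 under R 4.3.3 (filterByExpr with a minimum count of 10, TMM, 1 mean per group over all 26 libraries, robust quasi-likelihood F tests, 6 contrasts, Benjamini-Hochberg over all genes tested). CPM used TMM-scaled totals, and log2 CPM a prior count of 2. Each standard error is the log2 fold change divided by the root of its F value. Permutation tests are two-sided, exact for the mitochondrially encoded share and with 100000 resamples for correlations. The code was tested on simulated data. Within groups, 72 pairs of libraries differed by a chi-square per degree of freedom of 7.41 to 36.5, so no pair within a group agreed within sampling noise. Pairs across groups were not compared.

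Named are members called in any contrast, the 3 of smallest p per contrast, the 8 of highest level per kb, X-linked members in the sex contrasts, untested members, and the 2 to 4 most abundant of a role group. Slc25a15, Slc25a29, Slc25a25 and others at an unadjusted p under 0.05 or of wide spread were named after their values were seen. From the partner lists, genes called and the 3 of smallest p were eligible. Members, lists and rules were chosen with earlier results of these data known. Alternatives were DESeq2 1.42.0 (size factors within edgeR, and the Wald test), limma 3.58.1 voom with quality weights, no count filter, a filter at a mean of 5 CPM, the compared groups only, a replicate block, an offset for length and GC (splines with 4 degrees of freedom, 98.3% of genes tested with values), that offset with the block, omission of Ctrl males 3 and 6, an adjusted p under 0.1, and each mouse left out. Omission of the female mice numbered 2 was chosen after seeing the data.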

Additional observations from a re-analysis of the deposited data

Results flagged for a closer look

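Slc25a33, a carrier of pyrimidine nucleotides, stood at 69.3 CPM in Ctrl female 2, far above the next highest Ctrl female at 35.4 CPM and the median of 31.3 CPM in that group. It was the 1 of 64 groups of mice examined, for 16 named members, in which a single mouse lay this far from the rest, and chance alone marks about 5% of groups. In the same mouse Slc25a25 was the highest of the 26 at 25.1 CPM and Slc25a34 the highest at 242 CPM. The highest Slc25a33 of the cKO females was that of cKO female 2, at 46.6 CPM. Without the female mice numbered 2, the female to male log2 fold change of Slc25a33 in Ctrl was 0.25 in place of 0.55.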

How the results depend on the processing

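In males the number of called members was 1 and became 0 with DESeq2 size factors in edgeR, without a filter, with the compared groups only, with the length and GC offset, with that offset and the replicate block, and without Ctrl males 3 and 6. It became 2 with the DESeq2 Wald test and at an adjusted p under 0.1. For the mean effect of both sexes it was 1 and became 3 with the DESeq2 Wald test, with voom, at a mean of at least 5 CPM and at an adjusted p under 0.1. It became 2 without Ctrl males 3 and 6 or without the female mice numbered 2, and 0 with the offset and the replicate block. With the offset alone it was 1, Slc25a12 in place of Slc25a4. Between the sexes in Ctrl it was 0 and became 1 with the DESeq2 Wald test and at an adjusted p under 0.1. In cKO it was 0 and became 2 with the DESeq2 Wald test, at a mean of at least 5 CPM and at an adjusted p under 0.1, and 1 with voom. With each mouse left out in turn the number ranged from 0 to 1 in males, from 1 to 3 for the mean, stayed 0 in Ctrl and ranged from 0 to 1 in cKO. In females and for the interaction it was 0 under every setting run. The cause of these changes was not tested.

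Over all 39 tested members, up to 8 changed sign under a single setting within the comparisons of the sexes, up to 7 in females and up to 5 in males. Among the named members in the comparisons they are named for, signs changed for 2 X-linked members near 0 on the log2 scale, of which neither was called. Between the sexes in Ctrl, Slc25a5 was 0.0072 with voom, 0.00098 with the length and GC offset, 0.0012 with that offset and the replicate block, 0.019 without the female mice numbered 2, and between -0.044 and 0.020 with 1 mouse left out. In cKO it was 0.0018 with voom and between -0.042 and 0.025 with 1 mouse left out. Slc25a14 was -0.012 with voom in cKO, and with 1 mouse left out it lay between -0.053 and 0.17 in cKO and between -0.17 and 0.10 in Ctrl.

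The labels number the mice within each group and state no pairing across groups. Deviations of same-numbered mice correlated between -0.163 and 0.0880 in males and between -0.0969 and 0.404 in females, with 0 of 6 and 3 of 6 pairs over 0.1, and 1 of 6 and 2 of 6 Ctrl mice correlated best with their own number. With the replicate block the number of called members was again 1 in males and 1 for the mean, and Slc25a4 gave -0.19 (adjusted p 0.0380) and -0.15 (adjusted p 0.0210). For the lowest members, with fewer than 100 counts in most libraries, counting error limits what could be seen.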
